A study of Mus musculus with 12 samples.

Results

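The clonotypes described here are the minor kappa light chain rearrangements of the mouse VQ myeloma model. A clonotype was defined by its CDR3 bases together with the V and J gene they were assigned to. Of the 50 light chain clonotypes in the tables of the 4 primary lines, 34 had a first V gene other than IGKV3-12, IGKV15-103, IGKV6-15 or IGKV8-27. These 34 held 70 of 9173 counts. Over all 6 lines of the study there were 55 light chain clonotypes. The V genes left out were chosen by their counts in these libraries, so the number and the counts of the 34 are a description and carry no test. The 16 clonotypes left out held 9103 counts, and the largest had 3517.

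The cells were CD138+B220- myeloma (MM) cells from bone marrow (BM). All lines carried the same genotype, a Vκ*MYC transgene together with NrasLSL Q61R/+ and IgG1-Cre, abbreviated VQ. The transgene carries MYC under kappa light chain control elements, the Nras allele is switched on by Cre, and Cre is expressed with IgG1. The primary cells came from 4 donor lines, VQ-D1 and VQ-D2 as well as VQ-D4 and VQ-D5. The other lines, 4935 and 4938, were grown from recipients of VQ-D2. Each line had 1 light chain and 1 heavy chain library, so there were no replicates within a line. The tables hold receptor sequences only, so the sort markers could not be examined.

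A kappa chain is made when RAG recombinase joins 1 of many V genes to a J gene, and the CDR3 spans that junction. The locus can rearrange repeatedly within a cell, by joining a V gene farther upstream to a J gene farther downstream. Kappa junctions usually gain few or no added bases, so the same V and J gene can give the same CDR3 in unrelated B cells. In germinal centres, somatic hypermutation adds base substitutions to the rearranged V gene.

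The CDR3 sequences below, in 3 sets, carry most of what follows. The first is the set of IGKV12-46 clonotypes. The 4 joined to IGKJ1 in VQ-D5 were linked by pairs of up to 2 mismatches and together held the largest counts. All 6 are given 5′ to 3′, with capitals at bases that differ from the V reference in the deposited alignment.
VQ-D5 IGKV12-46/IGKJ1, 17 counts: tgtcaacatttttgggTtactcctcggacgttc
VQ-D5 IGKV12-46/IGKJ1, 6 counts: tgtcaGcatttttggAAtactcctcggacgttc
VQ-D5 IGKV12-46/IGKJ1, 5 counts: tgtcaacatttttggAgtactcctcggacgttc
VQ-D5 IGKV12-46/IGKJ1, 2 counts: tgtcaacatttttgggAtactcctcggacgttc
VQ-D5 IGKV12-46/IGKJ2, 1 count: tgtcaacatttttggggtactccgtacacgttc
VQ-D1 IGKV12-46/IGKJ5, 1 count: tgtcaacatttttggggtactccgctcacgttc

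The second set holds the 2 CDR3s that occurred in more than 1 line, with capitals again at substitutions from the V reference.
VQ-D2, 1 count, and VQ-D5, 2 counts, IGKV12-89/IGKJ1: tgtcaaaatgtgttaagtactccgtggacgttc
VQ-D2, 1 count, and VQ-D5, 1 count, IGKV13-84/IGKJ4: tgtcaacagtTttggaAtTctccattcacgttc

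The third set shows where base quality was low. The first sequence is the largest clonotype of both VQ-D2 and VQ-D5, and the others are minor clonotypes with capitals at bases of quality below 40, which was the top value.
IGKV3-12/IGKJ5, 1725 counts in VQ-D2 and 1635 in VQ-D5: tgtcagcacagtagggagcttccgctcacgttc
VQ-D2 IGKV14-130/IGKJ5, 1 count: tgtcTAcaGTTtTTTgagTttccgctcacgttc
VQ-D2 IGKV6-17/IGKJ5, 1 count: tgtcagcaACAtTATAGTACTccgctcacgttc
VQ-D5 IGKV3-4/IGKJ1, 3 counts: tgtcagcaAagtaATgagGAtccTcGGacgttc
VQ-D5 IGKV3-4/IGKJ4, 2 counts: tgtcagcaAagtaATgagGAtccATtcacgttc

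Clonotypes of other V genes were unevenly spread over the primary lines. VQ-D1 had 4, with 4 of 3584 counts, or 0.112% (exact Clopper-Pearson 95% interval 0.0304 to 0.286%). VQ-D2 had 8, with 8 of 1748 counts, or 0.458% (0.198 to 0.900%). VQ-D5 had 22, with 58 of 2223 counts, or 2.61% (1.99 to 3.36%). VQ-D4 had 0 of 1618 counts, which allows a share of up to 0.185% by a limit of 3 counts. The exact interval used for the other lines reaches 0.228% there. Intervals and limits for the share of a library cover counting error in 1 library, and amplified copies are not independent molecules.

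The VQ-D4 table was unlike the other 3 in ways that touch this 0. Its smallest count was 24, it held no clonotype with 1 count, and its counts alone were written with a decimal point. Whether rare clonotypes had been removed from it was not tested. Clone numbers were skipped in the other tables, 3 in VQ-D1, 3 in VQ-D2 and 1 in VQ-D5. The skipped number of VQ-D5, 4, lay between the 17-count and the 6-count IGKV12-46/IGKJ1 clonotypes. What these numbers held is not analysed here.

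Counts were low throughout. Of the 34 clonotypes, 23 had a count of 1: all 4 in VQ-D1, all 8 in VQ-D2 and 11 of the 22 in VQ-D5. The other 11 were all in VQ-D5 and held 47 counts between them. Their counts were 17, 6 and 5 for 3 IGKV12-46/IGKJ1 clonotypes, 3 for IGKV3-4/IGKJ1, IGKV1-110/IGKJ1 and IGKV4-72/IGKJ4, and 2 for another 5. The V genes left out were not all abundant in every line. In VQ-D2 IGKV8-27 had 1 count, no more than each of the 8 minor clonotypes there, and IGKV6-15 had 2.

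Neither derived line held much of this kind. In 4935 a single IGKV4-55/IGKJ2 clonotype had 1 of 385 counts, or 0.260% (0.00658 to 1.44%), and its V gene occurred in none of the 34. In 4938 there were 0 of 212 counts, which allows up to 1.42% by a limit of 3 counts and 1.72% by the exact interval. At these depths the share found in their parent VQ-D2, 0.458%, would not have been distinguishable from either value. None of the 8 minor VQ-D2 clonotypes was found in 4935 or 4938.

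The V genes came from the whole length of the locus. The 34 clonotypes used 21 V genes in 13 V gene families and 27 pairings of V with J, and 13 of the V genes occurred once. All 21 were matched by name to V segments on chromosome 6 in the RefSeq gene table of GRCm38.p6, the mm10 assembly. The nearest to the J genes was IGKV3-4 (chromosome 6, 70671789 to 70672377), 50.2 kb from IGKJ1 (70722562 to 70722599). The farthest was IGKV2-137 (67555636 to 67556216) at 3166 kb, and the median distance was 1495 kb. Within 1000 kb of IGKJ1 lay 8 of the 21 V genes, and 7 lay beyond 2000 kb. IGKV2-137, IGKV18-36 and IGKV12-98 each rest on 1 clonotype that matched the reference poorly, as described further on. Without them there were 18 V genes in 11 families and 24 pairings of V with J, and the farthest was IGKV1-135 (67609745 to 67610508) at 3112 kb. The median was then 1321 kb, with 7 of the 18 within 1000 kb and 5 beyond 2000 kb.

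**Figure D1:**
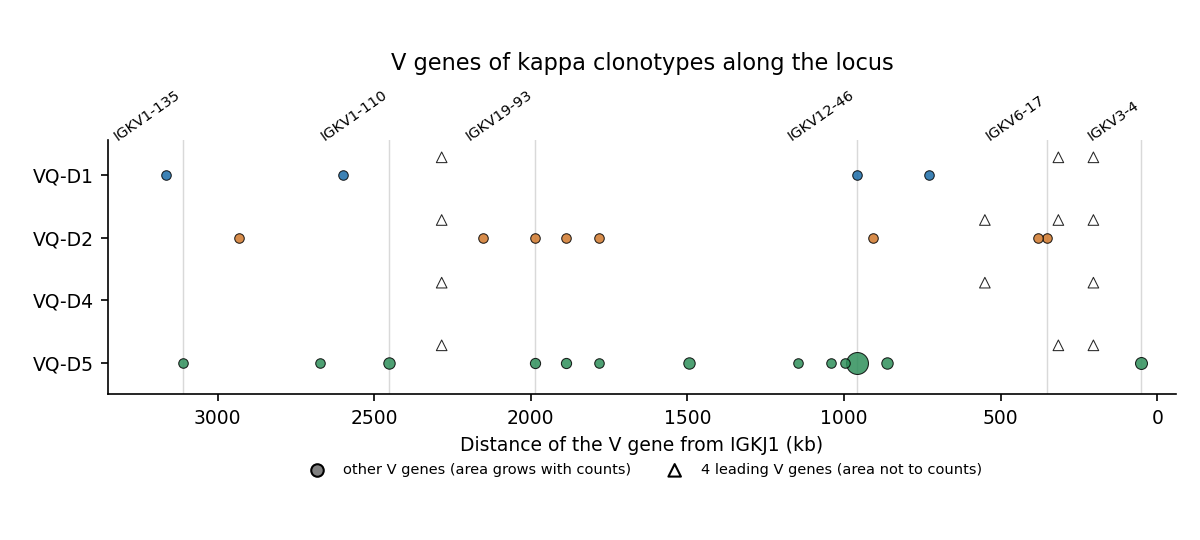
Each circle is a V gene found in a line (rows), placed by its distance from IGKJ1 in kb, with an area that grows with its counts, and triangles mark the 4 V genes left out. The 21 V genes range from 50.2 to 3166 kb, the largest circle is IGKV12-46 in VQ-D5 with 31 counts, and VQ-D4 has no circle.

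IGKV12-46 (69764523 to 69764992) was the most used V gene, with 6 clonotypes and 32 counts, of which 5 clonotypes and 31 counts were in VQ-D5 and 1 of each in VQ-D1. Its relatives made the IGKV12 family the largest, with 12 clonotypes of 5 V genes and 41 counts over 3 lines. In VQ-D5 the family made up 8 of 22 clonotypes and 37 of 58 counts. The IGKV1 and IGKV4 families followed with 4 clonotypes and 6 counts each. IGKV19-93 (68736297 to 68736764) had 3 clonotypes of 1 count each.

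Each of the other V genes found more than once had 2 clonotypes. IGKV3-4 had 5 counts, IGKV1-110 (68270527 to 68271265), IGKV12-41 (69858420 to 69858884) and IGKV4-72 (69226854 to 69227383) 4 each, and IGKV12-89 (68834846 to 68835307) 3. IGKV13-84 (68939602 to 68940067) had 2. Only 4 V genes occurred in more than 1 line: IGKV12-46, IGKV19-93, IGKV12-89 and IGKV13-84. In VQ-D2 the 8 clonotypes used 8 V genes, while in VQ-D5 the 22 used 13. V gene names were not always unique: 15 of the 34 clonotypes listed more than 1 V gene, and in 3 the first was tied, IGKV13-84 with IGKV13-85 in both lines and IGKV4-51 with IGKV4-58.

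All functional J genes were represented. IGKJ1, the J gene nearest the V genes, was joined in 15 of 34 clonotypes (44.1%, interval 27.2 to 62.1%), IGKJ4 in 9, IGKJ5 in 6 and IGKJ2 in 4. That interval treats clonotypes pooled over lines as independent draws, which similar clonotypes of a line may not be. IGKJ3, which is known as a nonfunctional J segment in the mouse, was joined in none. The J name of IGKV4-57/IGKJ2 was less sure. Its CDR3 ended in the same bases as those of IGKJ5, unlike the other IGKJ2 CDR3s, and 4 bases were missing from its J end. By counts IGKJ1 held 47 of 70, or 67.1%, because the IGKV12-46/IGKJ1 clonotypes alone had 30. Among the 11 clonotypes with more than 1 count, 8 used IGKJ1 and 3 used IGKJ4. Of the 11 with a single count in the same line, 3 used IGKJ1. Over all lines the 23 single-count clonotypes were spread as 7 with IGKJ1, 6 with IGKJ4, 6 with IGKJ5 and 4 with IGKJ2. The 16 clonotypes left out used IGKJ1 in 7, IGKJ2 in 5, IGKJ5 in 4 and IGKJ4 in 0.

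**Figure D2:**
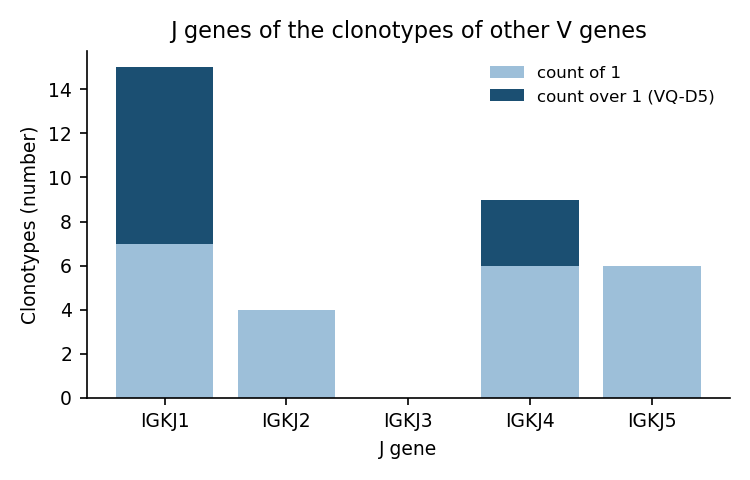
Bars give the number of the 34 clonotypes joined to each J gene, stacked by count class, pale for a count of 1 and dark for a count over 1, all of the latter in VQ-D5. IGKJ1 leads with 15 and IGKJ4 follows with 9, while IGKJ2 and IGKJ5 have pale bars only and IGKJ3 has 0.

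Every CDR3 was in frame. This held for 34 of 34 (100%, interval 89.7 to 100%), made up of 23 of 23 with a single count (lower bound 85.2%) and 11 of 11 with more (lower bound 71.5%). These bounds likewise treat clonotypes as independent draws. Of the 16 clonotypes left out, 15 were in frame, and the exception was an IGKV15-103/IGKJ1 clonotype of VQ-D1 with 1 count. All 34 began with the cysteine that ends the V framework and closed with threonine and the phenylalanine of the J gene. That cysteine and phenylalanine bound a CDR3 by definition, so their presence is no separate result.

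Length varied little. Of the 34, 28 had 33 bases (82.4%), 4 had 30 and 2 had 36, with a mean of 32.8 ± 1.27 bases (SD over clonotypes). All 11 with more than 1 count had 33 bases. The 4 of 30 bases were the 3 IGKV19-93 clonotypes and IGKV12-44/IGKJ1 of VQ-D2. Proline, a residue that most kappa V genes encode near the end of the CDR3, stood at CDR3 residue 8 in all 28 of 33 bases. None of the 4 of 30 bases had a proline in the CDR3. In these 4, the V alignment ended 4 or 6 bases short of the V gene's end. Whether their V genes encode a proline there was not examined.

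The junctions held hardly any base outside the V and J genes. The deposited V and J alignments met exactly in 17 of 34 clonotypes and overlapped by 1 base in 13, by 2 in IGKV4-57/IGKJ2 and by 5 in IGKV4-51/IGKJ4. Unplaced bases lay between them in 2 clonotypes only. Leaving out the 3 poor matches described next, 0 to 6 bases were missing from the V end and 0 to 4 from the J end. The 4 IGKV12-46/IGKJ1 clonotypes of VQ-D5 shared the same ends, with 1 V base and 2 J bases missing. IGKV3-4/IGKJ1 of the same line had those ends too.

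There were 3 single-count clonotypes that matched the mouse reference poorly. In VQ-D1 the IGKV18-36/IGKJ1 clonotype left 25 CDR3 bases unplaced, and the IGKV2-137/IGKJ1 clonotype had 6 V differences and 3 unplaced bases. In VQ-D2 the IGKV12-98/IGKJ4 clonotype had 3 V substitutions and 1 insertion or deletion. None of these 3 had a hit to IGKC, the kappa constant gene, and their J alignment scores ran from 155 to 195, against 321 to 390 in the other 31. Both CDR3s of 36 bases belonged to them, and both CDR3s with unplaced bases. Whether they come from mouse transcripts was not tested, and their sequences are not shown. IGKC was hit in 30 of the other 31, the exception being IGKV1-135/IGKJ1 of VQ-D5. Without the 3, VQ-D1 had 2 minor clonotypes, VQ-D2 had 7 and VQ-D5 had 22, all 31 CDR3s had 30 or 33 bases, and IGKJ1 was joined in 13 (41.9%).

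Most of the 31 well-matched CDR3s carried the reference bases. The comparison covered 20 to 28 aligned V bases within each CDR3 and no V base outside it. No V or J substitution was found in 21, made up of 15 of 20 with a single count and 6 of 11 with more. The other 10 carried 21 substitutions, all in the V part. A base that differs between the mice and the reference allele would be listed in the same way. Positions below count from 1 at the first CDR3 base, with the reference base written first. Where clonotypes are compared with each other, the base of the first named is written first instead.

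The IGKV12-46/IGKJ1 clonotypes of VQ-D5 were the largest group of 1 V and J gene linked by pairs of up to 2 mismatches. Within 1 mismatch only the 17-count and 2-count clonotypes were paired. The 17, 6, 5 and 2 counts of the group came to 30 of the 58 minor counts of that line (51.7%), or 1.35% of the library (interval 0.912 to 1.92%). The other 18 minor clonotypes of VQ-D5 had 28 counts, or 1.26% (0.839 to 1.82%).

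The 4 members of the group differed at the codon of CDR3 residue 6. The 17-count clonotype had G17T, which gives valine, and the 2-count clonotype had G17A, which gives aspartate. The 5-count clonotype had G16A, which gives serine. The same serine codon occurred without any listed V substitution in IGKV12-41/IGKJ1 of VQ-D5. The 5-count CDR3 differed from that one only by T24G and C25T. Its only listed V hit was IGKV12-46, and whether G16A is a mutation was not tested. The 6-count clonotype had G16A together with G17A, which gives asparagine, and also A6G, which leaves glutamine at residue 2. No IGKV12-46/IGKJ1 clonotype carried the reference codon, glycine. That codon did occur with other J genes, in IGKV12-46/IGKJ2 of VQ-D5 and IGKV12-46/IGKJ5 of VQ-D1, each with 1 count and every CDR3 base at quality 40.

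Base quality was low at those same positions. The lowest CDR3 quality of the 17-count clonotype, 32, was at base 17, the substituted one. That of the 2-count clonotype, 23, was also at base 17, and that of the 5-count clonotype, 22, included base 16. In the 6-count clonotype bases 6 and 17 had the lowest value, 29, and base 16 had 33. Over all 21 substitutions in the 31 clonotypes, 14 were at bases below quality 40, and 13 of these 14 were at the lowest quality of their CDR3. Whether these substitutions were present in the transcripts was not tested.

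The other substitutions were in 6 clonotypes. IGKV13-84/IGKJ4 carried A11T, G17A and A19T in both VQ-D2 and VQ-D5, all 3 at quality 40 in VQ-D5, while in VQ-D2 A19T was at 35. IGKV4-72/IGKJ4 of VQ-D5 with 3 counts carried G6A, A16C, A19T and C21T, of which A19T alone was at quality 40 and the rest at 34. The IGKV4-72/IGKJ4 clonotype with 1 count in the same line carried none. IGKV4-57/IGKJ2 carried A10T, C21T and C26T, all at quality 22. C26T lay outside the stretch that the V and J alignments shared, and the J name of this clonotype was less sure, as given above. IGKV14-130/IGKJ5 of VQ-D2 carried A14T at quality 26. One of the IGKV19-93/IGKJ1 clonotypes of VQ-D5 carried A6T at quality 40.

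Near-identical CDR3s were few. Of 561 pairs among the 34, 4 differed at 1 base or none. Both identical pairs joined VQ-D2 with VQ-D5, IGKV12-89/IGKJ1 and IGKV13-84/IGKJ4. The IGKV12-89 CDR3 carried no substitution in either line. The other pairs lay within VQ-D5. The 17-count and 2-count IGKV12-46/IGKJ1 clonotypes differed by T17A. The IGKV19-93/IGKJ1 clonotypes, with 1 count each, differed at base 6, where the substituted one had T and the other the reference A.

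With up to 2 mismatches there were 12 pairs, which took in 16 of the 34 clonotypes. The V gene was the same in 10 of these pairs, and 8 lay within a line. All 4 IGKV12-46/IGKJ1 clonotypes of VQ-D5 were joined in this way, except that the 17-count and 6-count ones were not paired directly. Between lines, IGKV12-46/IGKJ5 of VQ-D1 was paired with IGKV12-46/IGKJ2 of VQ-D5, and IGKV19-93/IGKJ2 of VQ-D2 with the unsubstituted IGKV19-93/IGKJ1 of VQ-D5, each pair differing only in the J part. The pairs of different V genes were IGKV12-46/IGKJ1 (5 counts) with IGKV12-41/IGKJ1, and IGKV4-51/IGKJ4 with the single-count IGKV4-72/IGKJ4.

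None of the minor clonotypes was close to a leading one. Among the 31 that could be set against a clonotype of a V gene left out of the same line and length, the nearest such clonotype was 7 to 15 bases away, with a median of 11. IGKV3-4/IGKJ4 of VQ-D5 was at 7, against IGKV3-12/IGKJ5.

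The lowest base quality in the CDR3 ran from 22 to 40, on the Phred scale of the deposited tables. Over the 34 its median was 40 and its mean 34.4 ± 6.90 (SD), with 18 clonotypes at 40 and 10 below 30. The 23 single-count clonotypes had a mean of 36.5 ± 6.25, and 16 of them were at 40. The 11 with more counts had a mean of 30.1 ± 6.39, and 2 of them were at 40, IGKV1-110/IGKJ1 and IGKV12-41/IGKJ1. More counts thus did not go with better quality here.

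Lines differed in this measure among single counts. In VQ-D1 all 4 were at 40. In VQ-D2 the values were 26 for IGKV14-130/IGKJ5 and IGKV19-93/IGKJ2, 28 for IGKV6-17/IGKJ5, 35 for IGKV13-84/IGKJ4, 38 for IGKV12-89/IGKJ1 and 40 for the other 3. In VQ-D5 9 of 11 were at 40, with IGKV4-57/IGKJ2 at 22 and IGKV4-72/IGKJ4 at 24. The lines therefore overlapped at 40.

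VQ-D5 was the only line with both count classes. There the single-count mean was 36.9 ± 6.89 (n = 11 clonotypes) and that of the higher counts 30.1 ± 6.39 (n = 11), a difference of 6.82. The ranges overlapped, from 22 to 40 in both. The higher-count values were 32, 29 and 22 for the 17-, 6- and 5-count IGKV12-46/IGKJ1 clonotypes. They were 22, 40 and 34 for the 3-count IGKV3-4/IGKJ1, IGKV1-110/IGKJ1 and IGKV4-72/IGKJ4 clonotypes. Among those with 2 counts, IGKV12-46/IGKJ1 had 23, IGKV3-4/IGKJ4 27, IGKV12-41/IGKJ4 and IGKV12-89/IGKJ1 31, and IGKV12-41/IGKJ1 40. Clonotypes of a library are not replicates, so the sign-flip comparison over lines had 1 line, and its smallest p is 1. The mean CDR3 length in VQ-D5 was 32.5 ± 1.21 bases for single counts and 33 for higher ones, and the in-frame shares were equal.

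**Figure D3:**
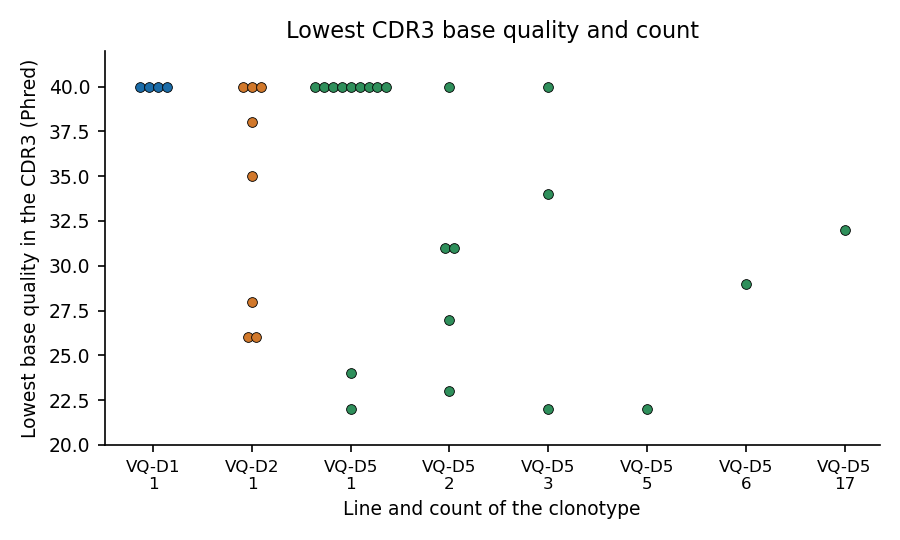
Each point is a clonotype, placed by line and count along the x axis and by the lowest base quality in its CDR3 on the y axis, which starts at 20, with equal values set side by side. Most single-count clonotypes lie at 40, while 9 of the 11 VQ-D5 clonotypes with more counts lie between 22 and 34.

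Low quality was concentrated where a minor CDR3 differed from the largest clonotype of its library. This was examined in the 15 clonotypes with bases below 40 and the length of that clonotype. Of their 173 bases below 40, 126 (72.8%) differed from it, against 50 of 322 bases at 40 (15.5%). In VQ-D2 the shares were 46 of 63 (73.0%) and 2 of 69 (2.90%), and in VQ-D5 80 of 110 (72.7%) and 48 of 253 (19.0%). Bases of a clonotype share 1 consensus and are not independent, so no test was made. In VQ-D5 the relation was not particular to the largest clonotype, as described below.

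In 3 of the 15 the bases below 40 were exactly those that differed. These were IGKV14-130/IGKJ5 of VQ-D2 with 9 bases, IGKV3-4/IGKJ1 of VQ-D5 with 8 and IGKV3-4/IGKJ4 of VQ-D5 with 7, as the capitals in the third set of sequences show. In another 3 every differing base was below 40 together with further bases: IGKV6-17/IGKJ5, with 11 of its 12 low bases differing, IGKV12-89/IGKJ1 of VQ-D2, with 17 of 18, and the 17-count IGKV12-46/IGKJ1, with 12 of 17. The pattern was not general. In 13 clonotypes of the same length as the largest, every CDR3 base was at 40 although 10 to 15 bases differed from it, and 6 clonotypes had another length. What lies behind the low values was not tested.

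**Figure D4:**
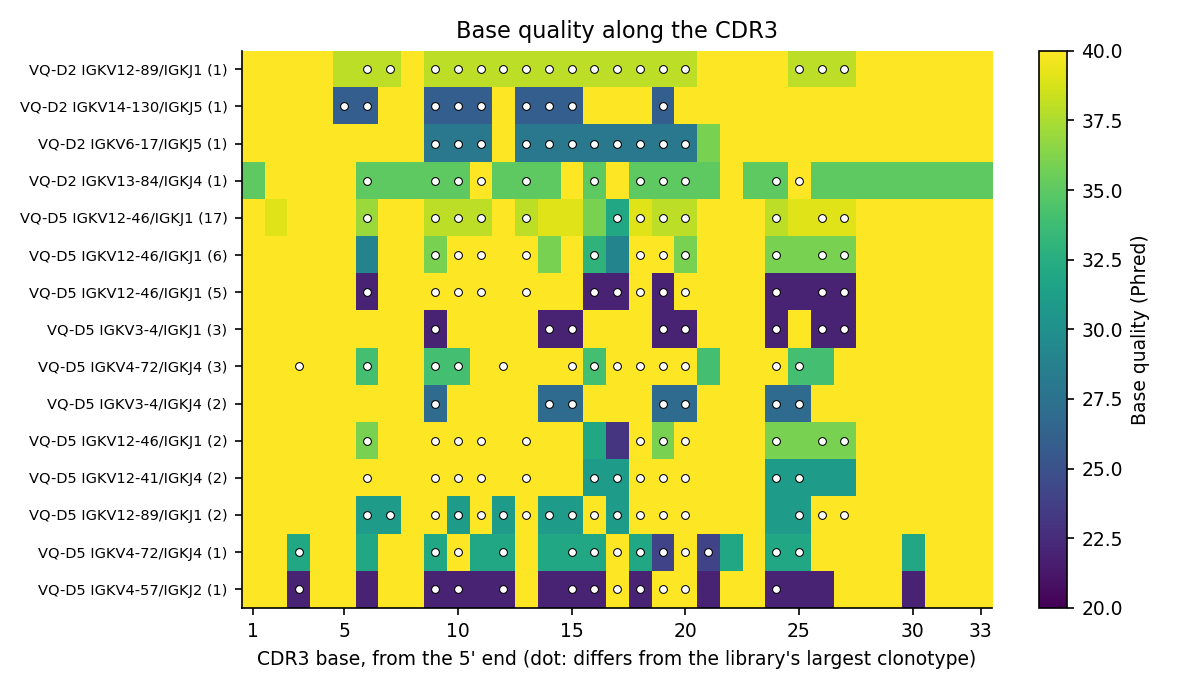
Rows are the 15 clonotypes of 33 bases with bases below 40, named by line, V and J gene and count, columns are CDR3 bases from the 5′ end, colour is base quality from 20 (dark) to 40 (yellow), and dots mark bases that differ from the largest clonotype of the library. Dark cells and dots coincide for IGKV14-130/IGKJ5 and both IGKV3-4 clonotypes, and most dots of the 6-count, 5-count and 2-count IGKV12-46/IGKJ1 clonotypes between bases 9 and 13 lie on yellow.

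In VQ-D5 the low bases of most of these clonotypes fitted the differences from another clonotype better than those from the largest. The largest was the best match there only for IGKV3-4/IGKJ1 and IGKV3-4/IGKJ4. The 17-count IGKV12-46/IGKJ1 clonotype differed from IGKV3-4/IGKJ4 at 15 bases and from the largest at 12, and all of these were low. In VQ-D2 the largest was the best match for each. The 6 low bases of IGKV12-41/IGKJ4 in VQ-D5 were the 6 that set it apart from the 17-count IGKV12-46/IGKJ1 clonotype. The 9 low bases of IGKV12-89/IGKJ1 in VQ-D5 were the 9 that set it apart from the 6-count one. The matches were picked among all clonotypes of the library, after the values were seen, as those whose differing bases best fitted the low bases. They need not be the nearest in sequence.

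The heavy chain libraries of the same lines gave no second sighting. Every V call there was an IGHV gene, so V calls could not show kappa. An exact search for the 32 distinct minor CDR3s on both strands found none in 9195 assembled sequences of VQ-D1, 27215 of VQ-D2, 342 of VQ-D4 and 23019 of VQ-D5. CDR3s of the V genes left out were found in 2, 1, 1 and 10 of these sequences. Of the 10 in VQ-D5, 0 with a minor CDR3 allows a minor share of up to 30%, so the 2.61% of the light chain library was not detectable in this way.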

How the data were processed

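Full-length heavy and light chain libraries were made from total RNA, per the labels' protocols, with mm10 as the genome build, per the submitters' processing notes. The deposited light chain tables give, per the file headers, a count and a fraction of the library for each clonotype, V, J and constant gene hits with alignment scores, and the lowest Phred quality score of the CDR3. The fraction equals the count over the table's sum. Which tool and filters were used, and whether counts are reads or molecules, was not given in the sources used here. In VQ-D2, 2 lines that name no clonotype were left out. The deposited heavy chain tables hold 1 assembled sequence per line, per the file headers, and were searched by exact CDR3.

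The V gene was the first hit listed. Substitutions, alignment ends and base qualities were read from the deposited alignments, and pairs were compared base by base at equal length. The reading and pair steps were tested on simulated data. Intervals are exact (Clopper-Pearson, 95%), and a count of 0 was given a limit of 3 counts. Scripts ran under Python 3.11.15 with numpy 2.4.6, pandas 2.3.3, matplotlib 3.10.9 and scipy 1.17.1.

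The V genes left out and all measures were chosen with earlier results of these data known. Groups came from the labels. Named clonotypes were those with a count over 1, those found in more than 1 line, those in near-identical groups, out-of-frame ones and those of lowest and highest quality, together with V genes of 2 or more clonotypes. IGKV1-135/IGKJ1, IGKV14-130/IGKJ5, IGKV6-17/IGKJ5, IGKV12-44/IGKJ1 and the 3 poor matches were named after their values were seen. The planned sign-flip tests between count classes could not be run over lines, because only VQ-D5 held both classes. Alternatives were the use of all V hits, a count of at least 2, a quality of at least 30, wider near-identity, summed counts and leaving out each line.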

Additional observations from a re-analysis of the deposited data

How the results depend on the processing

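With a count of at least 2 required, 11 of the 34 minor clonotypes remained, all in VQ-D5. A lowest quality of at least 30 left 24 (VQ-D5 15, VQ-D2 5, VQ-D1 4). Using all V hits, or leaving out clonotypes within 2 mismatches of a leading one, left 34. For alternatives chosen after the data were seen, without the poor reference matches there were 31. Merging similar clonotypes that shared line, V and J gene also left 31, 19 of them in VQ-D5. That merge reached beyond 1 mismatch, at which only 2 pairs lay within a line. It did not join every clonotype linked by pairs of up to 2 mismatches. Near-identical pairs rose from 4 to 12 with 2 mismatches allowed, and to 12 with an edit distance of up to 2. The IGKJ1 share was 67.1% by counts against 44.1% by clonotypes. Leaving out each line in turn gave an IGKJ1 share of 33.3 to 50%, a mean CDR3 length of 32.7 to 33 bases and an in-frame share of 100%. The quality difference within VQ-D5 was 9 by medians against 6.82 by means. Without VQ-D5 it has no value. The 0 kappa V calls in heavy chain tables stayed at 0 with at least 100 aligned V bases and in the exact search, but V calls there were IGHV only. No paired analysis was possible because only 1 line held both count classes, and with no replicates within a line the depth of single counts limits every share.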
